A study of Mus musculus with 8 samples.

Results

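RNA that came down with DAZL was set against the total RNA of the same kind of cells, using 6 of the 8 arrays of the series: 2 arrays of an immunoprecipitation (IP) with an antibody against V5, 2 of an IP with an antibody against GFP, and 2 of total input RNA. These arrays were picked out by their labels, with earlier results of these data already known. Both IPs are called DAZL IP here because the bait was DAZL fused to GFP and the V5 tag. The other 2 arrays held a mock IP with normal mouse IgG, and they serve as the control IP measured the same way. All 4 groups shared the same cells: mouse V6.5 embryonic stem cells of a mixed C57BL/6 and 129SV background that expressed Dazl-GFP-V5, which had been depleted of feeder cells and kept for 12 days in differentiation medium on gelatin to give primordial germ cells in vitro. The mock IP thus also came from cells with the tagged protein. RNA was recovered from native lysates, with no ultraviolet crosslinking, and was labelled with a single dye (Cy3) for Agilent whole-genome mouse arrays. The sources used here do not give the promoter of the tagged protein, the number of stem cell clones or whether replicates were separate cultures. The p-values therefore reflect only how much these arrays vary, and some of that variation may be technical.

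DAZL belongs to a family of germ cell proteins with an RNA recognition motif. It binds short U-rich stretches in the untranslated end of its target mRNAs and is known to act on their translation and stability, and the loss of its gene removes germ cells in both sexes. A native IP collects RNA held in complexes with the protein, which may include RNA bound by its partners or RNA that joined the complexes in the lysate.

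Each array gave 1 value per probe, which is the log2 intensity minus that array's own 75th percentile. A value therefore compares a transcript with the other transcripts on its array, and a difference from input is a change in relative level, not an amount of RNA recovered. The 2 arrays of a replicate number lay on the same slide as the others of that number, and values are given in the order replicate 1, replicate 2. The share of probes well above background ran from 61.3% on mock IP replicate 1 to 70.5% on input replicate 1, and precision is limited by having 2 arrays per group. Of 10 markers of primordial germ cells, 9 were on the array and all 9 were well above background on both input arrays. Their summed linear level, in units of the array's 75th percentile, was 62.4 to 66.1 in input. The same sum was 90.8 to 94.1 for 6 markers of pluripotent cells, 9.83 to 11.7 for 6 fibroblast markers, 4.83 to 6.74 for 5 neural markers, 4.03 to 4.55 for 5 mesoderm and heart markers, 1.88 to 1.99 for 5 blood and vessel markers and 1.25 to 2.01 for 5 endoderm markers. Ttr and Alb among the endoderm markers and Hba-x among the blood markers were not well above background on either input array. A probe's level depends on the probe and the marker sets differ in number, so the sums do not rank the cell types. In bulk RNA, fewer cells of a type and less RNA per cell cannot be told apart.

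The DAZL IP differed from input over a large part of the transcriptome. Of 19032 genes tested, 3353 (17.6%) were higher in the DAZL IP than in input and 3977 (20.9%) were lower at an adjusted p under 0.05 in limma. A called difference of at least 2-fold was found for 2728 genes (14.3%) upwards and 2667 (14.0%) downwards, and one of at least 4-fold for 847 (4.45%) and 499 (2.62%). The median difference over all genes was -0.13 on the log2 scale, with quartiles at -0.71 and 0.52 and a median standard error (SE) of 0.27. All 4 IP arrays lay above both input arrays for 5234 genes (27.5%) and below both for 7174 (37.7%). Of all calls, 45.7% were upwards, a share that became 62.5% with normexp background correction and 56.2% with the authors' deposited table. The upward and downward counts fell to 1576 and 977 without input replicate 1 and to 1669 and 1191 without input replicate 2. With the slide as a block in the fit they were 4401 and 5747. When the arrays were scaled to 8 spike-in probes in place of the 75th percentile, limma called 0 genes higher and 19 lower, with 389 and 637 at an unadjusted p under 0.05.

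Each antibody on its own gave counts of the same order. In the V5 IP 2642 genes (13.9%) were higher than in input and 2731 (14.3%) lower, and in the GFP IP 3005 (15.8%) were higher and 3278 (17.2%) lower. Both comparisons share the input arrays, so their likeness is not a separate result. The V5 IP counts were 887 and 318 without input replicate 1, 987 and 423 without input replicate 2 and 1191 and 594 without V5 IP replicate 1. For the GFP IP they were 1209 and 622 without input replicate 1, 1316 and 755 without input replicate 2 and 1475 and 888 without GFP IP replicate 1. With the slide as a block, 4742 genes were lower in the V5 IP and 5189 in the GFP IP. Between the V5 IP and the GFP IP limma called 0 genes in either direction, with 188 genes at an unadjusted p under 0.05. That fit did not pair the arrays by slide, although V5 and GFP arrays of the same slide deviated together (correlation 0.78). Differences repeated on both slides could thus have been missed. The mock IP, set against the same input arrays, had 1219 genes (6.41%) higher and 805 (4.23%) lower, with a median of 0.19. These mock counts were 0 and 0 without input replicate 1, with 2091 and 1309 at an unadjusted p under 0.05, and 0 and 0 without mock IP replicate 1, with 2437 and 1741. They were 3 and 4 without input replicate 2, 629 and 550 without GFP IP replicate 1 or without GFP IP replicate 2, and 2391 and 1406 without mock IP replicate 2. With the slide as a block they were 3890 and 2595. Against the mock IP itself, 3380 genes (17.8%) were higher in the DAZL IP and 6134 (32.2%) lower, with a median of -0.44.

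Because each slide held 1 array of every group, the difference could be taken on each slide separately. On slide 1, 3483 genes (18.3%) were at least 2-fold higher in the DAZL IP and 3682 (19.3%) at least 2-fold lower. On slide 2 these were 2530 (13.3%) and 2584 (13.6%). Of the genes past 2-fold upwards, 2291 were so on both slides, which was 65.8% of those on slide 1 and 90.6% of those on slide 2. Downwards, 2138 were shared, 58.1% and 82.7% of the 2 slides' genes, and 18 genes passed 2-fold in opposite directions. Across the 19032 genes the differences on the 2 slides had a Pearson correlation of 0.878 and a Spearman correlation of 0.867, given as a description because genes are not independent replicates. The mock IP differences had a Pearson correlation of 0.743 between slides. The slides were not alike in size of difference, since more genes were past 2-fold in each direction on slide 1 than on slide 2.

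**Figure D1:**
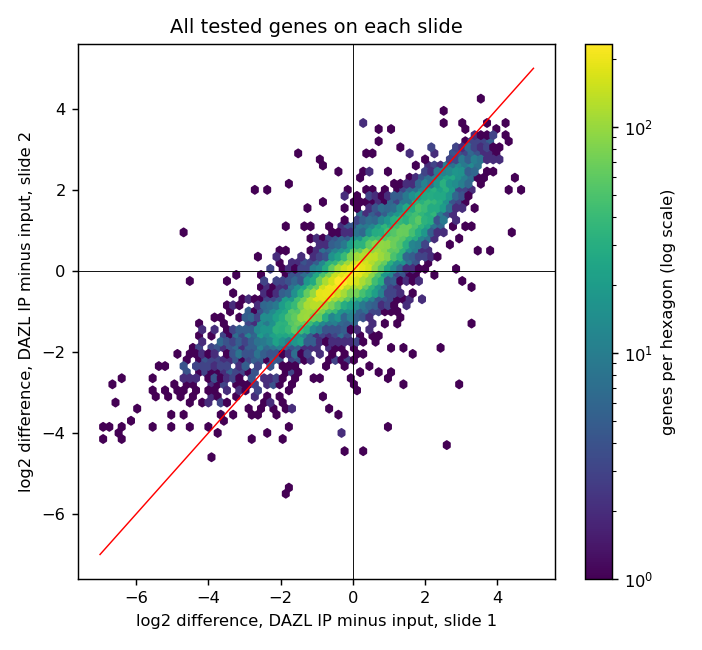
Difference between the DAZL IP (mean of the V5 and GFP arrays) and input on slide 1 (x axis) and slide 2 (y axis), in log2, for 19032 genes counted in hexagons; colour gives the number of genes on a log scale and the red line marks equal values. Most genes lie along the line, and the genes with the lowest values on slide 1 lie above it.

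The bait's own transcript was higher in the DAZL IP than in input. Dazl stood at 2.90 and 2.81 on the input arrays, 3.99 and 4.27 in the V5 IP, 3.85 and 4.59 in the GFP IP, and 1.02 and 2.0 in the mock IP. All 4 DAZL IP arrays lay above both input arrays and both mock arrays lay below them. The difference from input was 1.32 (SE 0.34, 2.51-fold, adjusted p = 0.0180), and that from the mock IP was 2.67 (SE 0.34, adjusted p = 0.00174). The second Dazl probe had a difference of 0.74 in the same direction. Whether the probes read the tagged transcript, the endogenous one or both was not tested. The call against input was lost without input replicate 1 (adjusted p = 0.0989), without input replicate 2 (0.114) and with quantile normalization (0.0599).

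The 12 largest increases among genes well above background on all 6 arrays ranged from 11-fold to 15.6-fold. The first was Gsx2, a homeobox transcription factor of the developing forebrain, which read -2.86 and -2.71 in input, 1.43 and 0.89 in the V5 IP and 1.35 and 1.04 in the GFP IP. Its difference was 3.96 (SE 0.23, adjusted p = 0.000728). The 12 were chosen, clone names left out, among called genes with every DAZL IP array above both input arrays. That separation was thus set by the choice. Dck, the deoxycytidine kinase of nucleotide salvage, read 1.46 and 1.54 in input and 1.38 and 1.56 in the mock IP. In the V5 IP it read 5.34 and 4.73 and in the GFP IP 5.26 and 4.95, a difference from input of 3.57 (SE 0.24, adjusted p = 0.000728). Here the control IP sat at the input level and all 4 DAZL IP arrays were far above it. Eif1b, a paralogue of the start-codon selection factor eIF1, read 3.41 and 2.68 in input and 7.20, 6.32, 7.19 and 6.43 on the 4 DAZL IP arrays. For this gene the mock arrays, at 4.67 and 4.47, also lay above input without passing the test (adjusted p = 0.0559).

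The other 9 of the 12 had varied known roles. Hsd17b7, an enzyme of sterol synthesis, had a difference of 3.66. Siah1a, a RING ubiquitin ligase, had 3.54, and Asic2, an acid-sensing ion channel, had 3.52, although 1 of the 2 kept Asic2 probes had the opposite sign. Naa40, which acetylates histone tails, had 3.52, and St3gal4, a sialyltransferase, had 3.46. Paqr9 (3.82), Aard (3.77), Ttc33 (3.50) and Arxes1 (3.48) completed the group. Against the mock IP, where 17.8% of all genes were higher, all 12 were called higher, with differences from 2.22 to 3.60. Their mock IP differences from input ran from -0.05 to 1.52, and only that of Asic2 was called (1.31, adjusted p = 0.0469). The 12 calls against input held with each of the 8 arrays left out in turn, the highest adjusted p being 0.0155.

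The 12 largest decreases among genes well above background on all 6 arrays ranged from 9.17-fold to 38.2-fold, and they moved in the mock IP as well. These 12 were chosen, clone names left out, among called genes with every DAZL IP array below both input arrays. Zfp987, a zinc finger gene, read 3.38 and 3.56 in input, -2.79 and -0.01 in the V5 IP, -3.43 and -0.90 in the GFP IP and -1.53 and 0.21 in the mock IP. Its difference from input was -5.25 (SE 0.94, adjusted p = 0.00479) in the DAZL IP and -4.13 in the mock IP (adjusted p = 0.0521), and the DAZL IP differed from the mock IP by -1.13 (adjusted p = 0.341). All 6 IP arrays of any antibody were below both input arrays, and replicate 1 of each IP was the lower of its pair. Eif5b, the GTPase that joins the ribosomal subunits at the start codon, read 3.02 and 3.31 in input and -1.67, -0.24, -2.37 and -1.02 in the DAZL IP. The mock arrays gave -0.70 and 0.63, so the mock IP fell by 3.20 (adjusted p = 0.0316) where the DAZL IP fell by 4.49 (SE 0.56, adjusted p = 0.00139).

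The remaining 10 were Zfp985, Zfp948, Zfp97 and Zfp958 among the zinc finger genes, the kinase Rock1, the pre-rRNA processing factor Esf1, Cfap36, the placental genes Prl4a1 and Tpbpa, and Nemf, a factor of ribosome-associated quality control. Over all 12, the mock IP differed from input by -1.92 to -4.13 and the DAZL IP differed from the mock IP by -0.43 to -1.55. Only Prl4a1 was called in the latter comparison (adjusted p = 0.0382), and only Eif5b and Cfap36 (adjusted p = 0.0454) in mock IP against input, where 4.23% of all genes were lower. In all 12 genes and all 3 antibodies the replicate 1 array was lower than the replicate 2 array. The calls of Rock1, Zfp948, Esf1, Zfp97, Zfp958, Tpbpa and Nemf were lost with at least 1 array left out, with adjusted p up to 0.164 for Zfp958. Zinc finger genes of this class have close relatives, and whether their probes also bound those was not tested.

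**Figure D2:**
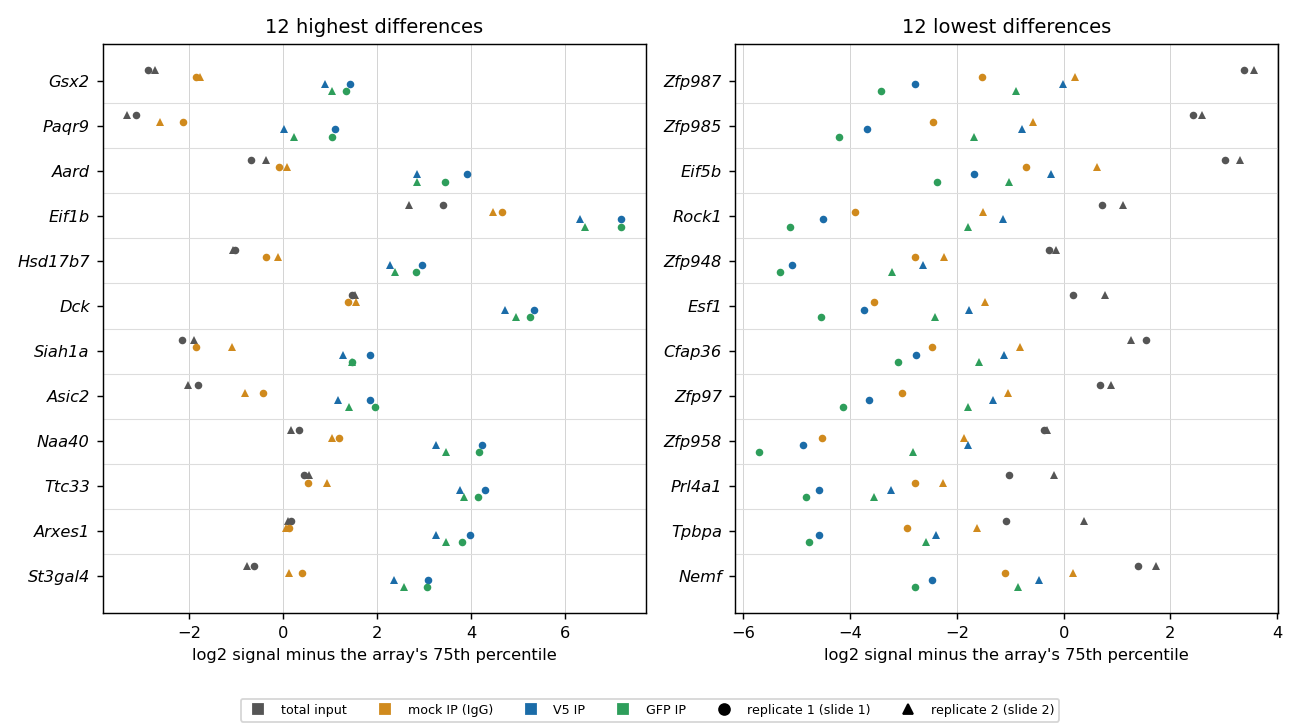
Log2 signal minus the array's 75th percentile (x axis) on all 8 arrays for the 12 genes with the largest increase (left) and the 12 with the largest decrease (right) in DAZL IP against input; colour gives the group and the symbol the replicate number. On the left the mock IP points lie near input and the V5 and GFP points to the right of both, whereas on the right the mock IP points lie among or near the V5 and GFP points.

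Some transcripts were above background on one side only. Well above background on all 6 arrays were 16858 of the 19032 genes (88.6%). On all 4 DAZL IP arrays and neither input array were 47 genes (0.247%), and on both input arrays and no DAZL IP array were 389 (2.04%). Such genes could enter the fit through the side where they were bright, so their differences are given as a description with no test. Limma called 46 of the 47 higher and 271 of the 389 lower, and the counts over all genes given above include these. For these genes the dim side has only a bound, and the fold is written "at least": the brighter group's mean was set against the mean, over the dim arrays, of the gene's own signal or the lowest signal well above background, whichever was higher. Foxa1, a forkhead factor of endoderm, was at least 8.24-fold higher, with readings of -6.83 and -7.57 in input and -3.28, -3.37, -3.27 and -3.31 in the DAZL IP. The 2 mock arrays, at -7.23 and -7.17, were at the input reading. The other 5 named by the same rule were Olfr701 (at least 5.07-fold), the oestrogen receptor gene Esr1 (3.38), the homeobox gene Hoxa10 (3.42), Spdye4b (3.18) and the cytokine gene Tnfsf4 (2.77). The differences of these 6 depended on the background correction: under normexp that of Foxa1 was 0.31 and those of the other 5 changed sign.

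On the lower side, Ift74, which codes for a part of the ciliary transport machinery, was at least 7.42-fold lower. It read -3.17 and -2.97 in input and -7.89, -6.15, -7.78 and -6.92 in the DAZL IP, with a mock IP difference of -3.15 from input. Prrxl1, a homeobox gene of sensory neurons, was at least 6.63-fold lower, Ugt2b5, a glucuronosyltransferase, at least 4.86-fold, Sox8 at least 4.67-fold, Sycp1, a synaptonemal complex gene, at least 3.87-fold and Layn at least 1.94-fold. Under normexp the differences of these 6 kept their direction but shrank to between -0.99 (Layn) and -1.40 (Ift74). Limma called 0 of the 6 there (adjusted p from 0.103 to 0.335). For these genes a limma call, or its loss, is a description and not a test. Sycp1 was also not called without input replicate 1 or without input replicate 2.

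With the main processing the median difference from input stayed between -0.36 and 0.01 across deciles of the input level, but under normexp it varied by more, and in opposite directions on the 2 slides. A probe's level depends on the probe as well as on the transcript, so levels were used only to sort genes into 10 equal groups. The level came from 1 input array and the difference from the other slide, so that the 2 shared no array. With the level from input replicate 1 and the difference from slide 2, the median difference was -0.24 in the lowest decile, between -0.21 and -0.08 in the next 8 and -0.33 in the highest. With the level from input replicate 2 and the difference from slide 1, it was 0.01 in the lowest decile, between -0.21 and -0.01 in the next 8 and -0.36 in the highest. The highest decile was the lowest of the 10 both ways. The highest minus the lowest decile was -0.09 and -0.37, a mean of -0.23 ± 0.19 (SD, n = 2 slides), and for the mock IP -0.07 and -0.20. Spearman's correlation across genes was 0.02 (n = 19692 genes) and -0.02 (n = 18865 genes).

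The share of genes past 2-fold also changed with the input level. On slide 2 the share of genes at least 2-fold higher was 7.56% in the lowest decile, 17.4% in the eighth and 11.3% in the highest. On slide 1 the shares were 10.9%, 22.8% and 18.8%, with 23.2% in the seventh. Genes at least 2-fold lower made up 18.3% of the lowest decile and 17.9% of the highest on slide 2, against 11.5% in the fourth. On slide 1 their share was 16.3% in the lowest decile and 24% in the highest. Upward differences past 2-fold were thus found most often in the sixth to ninth deciles, and least often in the lowest 3. In the lowest decile 45.5% and 41.3% of genes were above background on neither IP array of the slide used. The highest-minus-lowest difference depended on the processing. With normexp it was -1.17 on slide 2, where the decile medians ran from 0.74 down to -0.44, and 1.95 on slide 1, where they ran from -1.86 to 0.18, so its mean of 0.39 averages opposite trends. The mean was -0.52 among genes well above background on all 6 arrays and -0.72 with quantile normalization.

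**Figure D3:**
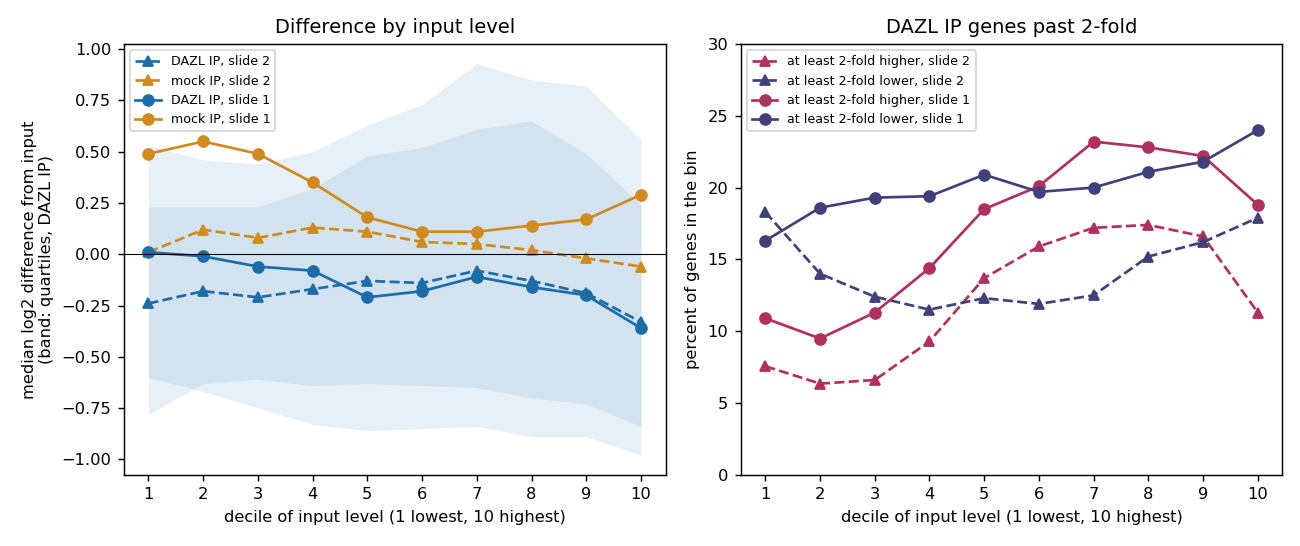
Left, median log2 difference from input (y axis) in each decile of the input level (x axis, 1 lowest to 10 highest) for DAZL IP (blue, with its quartiles as bands) and mock IP (orange), circles for slide 1 and triangles for slide 2; right, percent of genes in each decile that were at least 2-fold higher (red) or lower (dark blue) in the DAZL IP. With this processing the medians stay between -0.36 and 0.01 for the DAZL IP, and the share of genes at least 2-fold higher peaks in the seventh or eighth decile.

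Within the top decile of the input level, changes in both directions were found. The 4 largest increases were Nfatc2ip (10.1-fold), Tmem101 (9.76-fold), Rnf7, a RING component of cullin ubiquitin ligases (8.98-fold), and Lbr, the lamin B receptor and a sterol reductase (8.54-fold). Rnf7 read 4.75 and 4.71 in input, 5.79 and 5.54 in the mock IP and 8.40, 7.44, 8.28 and 7.47 in the DAZL IP (difference 3.17, SE 0.34, adjusted p = 0.000887). All 4 IP arrays were above both input and both mock arrays. The 4 largest decreases were all genes of the nucleolus: nucleolin (Ncl, 7.78-fold), the ribosome assembly factor Brix1 (7.37-fold), Dnttip2 (6.47-fold) and the snoRNP protein gene Nop58 (5.29-fold). Ncl read 6.13 and 6.09 in input, 2.88, 3.80, 2.53 and 3.39 in the DAZL IP and 3.41 and 4.22 in the mock IP. The DAZL IP fell by 2.96 (SE 0.38, adjusted p = 0.00145) and the mock IP fell by 2.29 (adjusted p = 0.0287), and both IPs lay below input without overlap. Ncl had 1 of 4 kept probes, and Brix1 1 of 2, with the opposite sign.

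Genes of the germ cell program moved in both directions. Of 31 listed genes of primordial germ cells that were tested, 10 (32.3%) were higher and 8 (25.8%) lower, beside 17.6% and 20.9% of all genes tested, with a median of 0.09 (-0.04 with normexp and -0.18 with spike-in scaling) against -0.13 over all genes, and 12 and 12 lay wholly above or below input, as 27.5% and 37.7% of all genes did. Kit, the receptor of stem cell factor on which germ cells depend, read 2.44 and 2.23 in input, 5.48 and 4.79 in the V5 IP, 5.51 and 5.06 in the GFP IP and 2.0 and 1.79 in the mock IP. It rose 7.35-fold (difference 2.88, SE 0.27, adjusted p = 0.000740), with all 4 IP arrays above the other 4. Prdm1, the transcription factor that specifies primordial germ cells, rose 6.74-fold and was at -1.43 and -1.46 in input and 1.57, 1.01, 1.51 and 1.14 in the DAZL IP. At the other end, the X-linked homeobox gene Rhox6 fell 3.87-fold (6.70 and 7.13 in input, 4.76, 5.38, 4.48 and 5.24 in the DAZL IP), and the surface marker gene Ifitm3 fell 2.55-fold. Leaving out input replicate 2 left 5 genes higher, and leaving out input replicate 1 left 3 lower.

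Further germ cell genes were picked after their values had been seen. Sohlh2 rose 4.56-fold, Tfap2c, a specification factor, rose 2.83-fold, and Piwil1, of the piRNA pathway, rose 6.92-fold from -6.14 and -5.74 in input to -2.86, -3.51, -2.89 and -3.33. The Piwil1 call was lost with normexp (0.32, adjusted p = 0.717). Rhox9 fell 3.54-fold and Mael, a piRNA pathway gene, fell 2.74-fold. Ddx4, the germ cell helicase, was not called against input (-0.39, adjusted p = 0.232), but its mock IP was lower than input (-1.61, adjusted p = 0.0255), so it was higher in the DAZL IP than in the mock IP (1.22, adjusted p = 0.00748). Dppa3 (0.52, adjusted p = 0.533), Dnd1 (0.91, adjusted p = 0.159, and 0.0138 with the slide as a block) and Nanos3 (-0.52, adjusted p = 0.0877) did not pass the test. For Dppa3 the replicate 1 arrays of the DAZL IP, at 4.33 and 4.34, lay above input and the replicate 2 arrays, at 2.61 and 2.76, overlapped it.

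More pluripotency genes were called higher than lower. Of 28 tested, 13 (46.4%) were higher and 3 (10.7%) lower, beside 17.6% and 20.9% of all genes, and 8 were lower with quantile normalization. The median was 0.66, which was 0.70 on slide 1 and 0.60 on slide 2. The mock IP median was -0.16. The core factor Sox2, named after its value was seen, read 3.55 and 3.39 in input, 6.44 and 5.55 in the V5 IP, 6.29 and 5.66 in the GFP IP and 3.06 and 3.22 in the mock IP, an increase of 5.72-fold (difference 2.52, SE 0.31, adjusted p = 0.00129). Klf5 rose 5.56-fold, from 1.67 and 1.63 in input to 4.36, 3.77, 4.38 and 3.99, with 1.31 and 1.64 in the mock IP. Pou5f1, the partner of Sox2, went the other way: it read 4.20 and 4.14 in input and 3.11, 3.12, 3.24 and 2.92 in the DAZL IP, a decrease of 2.11-fold (SE 0.27 on the log2 scale, adjusted p = 0.0171). All 4 of its IP arrays lay below both input arrays. The nuclear receptor gene Nr0b1 fell 2.71-fold.

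Among other pluripotency genes named after their values were seen, Sall4 rose 5.41-fold, Lin28a 4.51-fold, Klf4 2.29-fold and Zfp42 2.29-fold. Nanog rose 2.56-fold (adjusted p = 0.0324), a call that was lost in the fit of the 6 arrays alone (adjusted p = 0.0573), with 6 of 8 single arrays left out (up to 0.153) and with normexp (0.0727). Esrrb was not called (-0.27, adjusted p = 0.344). Pou5f1 lost its call without input replicate 1 (adjusted p = 0.119), without input replicate 2 (0.102) and with normexp (0.0972). The list had 7 higher and 1 lower without input replicate 1.

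RNA-binding regulators formed the list with the highest median of the 22 described, which were drawn up with earlier results of these data known. Of 60 tested, 33 (55.0%) were higher and 4 (6.67%) lower, beside 17.6% and 20.9% of all genes. The median was 1.23 (1.35 on slide 1, 1.07 on slide 2) against -0.07 in the mock IP. Rbfox2, a splicing regulator named after its value was seen, read 1.13 and 1.11 in input, 4.85 and 3.98 in the V5 IP, 4.86 and 4.13 in the GFP IP and 1.71 and 1.38 in the mock IP, an increase of 10.1-fold (SE 0.32, adjusted p = 0.000765). Cpeb3, which controls translation through the poly(A) tail, rose 8.04-fold and Celf1 rose 6.29-fold. For all 3 the DAZL IP arrays lay above every input and mock array.

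Other members, also named after their values were seen, had known roles in translational control. Elavl2, of the Hu family, rose 6.90-fold and was lower than input in the mock IP (-1.13, adjusted p = 0.0481). Fmr1, the fragile X gene, rose 4.32-fold, Tial1 4.24-fold and Pum2, a reported partner of DAZL, 2.26-fold, although 1 of 2 Tial1 probes had the opposite sign. Fxr1, the relative of Fmr1, was called lower (3.50-fold, adjusted p = 0.00603) with readings of 4.88 and 4.89 in input, 2.75, 3.53, 2.67 and 3.36 in the DAZL IP and 2.88 and 3.69 in the mock IP. That call rests on 1 of 3 probes: the other 2 had the opposite sign, the mean of the probes gave 0.20 (adjusted p = 0.522), and the call was lost without either input array (adjusted p = 0.0539 and 0.0513). Pum3 fell 2.54-fold. In limma the list had 24 higher and 0 lower without input replicate 1.

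Polycomb genes, which code for the complexes that keep developmental genes silent, gave 19 of 35 (54.3%) higher and 2 (5.71%) lower. Of all genes, 17.6% were higher and 20.9% lower. The list median was 0.97. Suz12, a core subunit of the histone methyltransferase complex, read 2.60 and 2.56 in input, 5.50 and 5.45 in the V5 IP, 5.29 and 5.46 in the GFP IP and 2.43 and 3.06 in the mock IP, a rise of 7.19-fold (difference 2.85, SE 0.23, adjusted p = 0.000728). Its accessory subunit Jarid2 rose 6.68-fold. After their values were seen, Rnf2 (6.26-fold) and Mtf2 (4.24-fold) were added as risen and the methyltransferase Ezh2 as not called (-0.52, adjusted p = 0.143). Eed, another core subunit, fell 2.93-fold, from 2.44 and 2.23 in input to 0.71, 0.94, 0.70 and 0.78, and to 0.65 and 0.95 in the mock IP. The subunits of 1 complex thus lay on both sides of input. The mock IP median of the whole list was 0.59, beside 0.19 over all genes. Against the mock IP 14 members were higher and 9 lower (17.8% and 32.2% of all genes), with a median of 0.01, beside -0.44 over all genes. Leaving out input replicate 1 gave 13 higher and 1 lower.

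**Figure D4:**
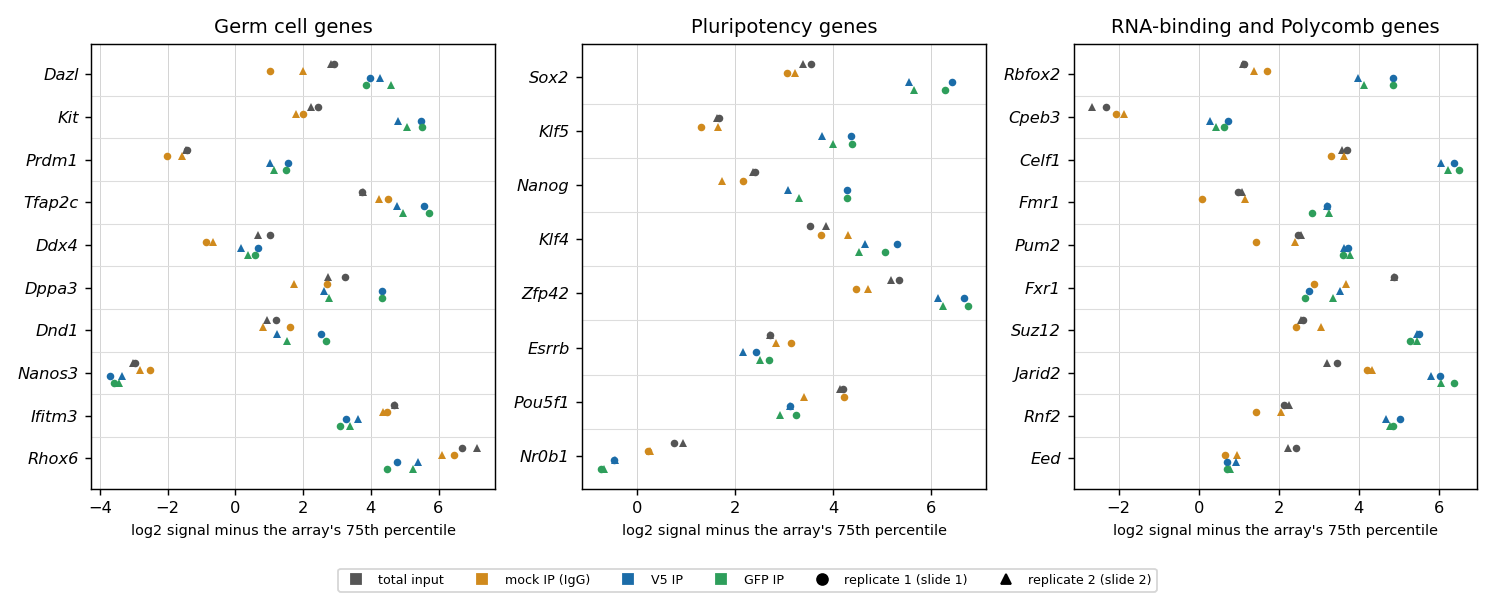
Log2 signal minus the array's 75th percentile (x axis) on all 8 arrays for germ cell genes (left), pluripotency genes (middle) and RNA-binding and Polycomb genes (right); colour gives the group and the symbol the replicate number. Kit, Sox2, Rbfox2 and Suz12 have all 4 DAZL IP points to the right of input and mock IP, Pou5f1, Rhox6 and Eed have them to the left of input, and Dppa3 and Ddx4 overlap input.

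Ubiquitin ligases and conjugating enzymes were higher in 38 of 104 (36.5%) and lower in 10 (9.62%), beside 17.6% and 20.9% of all genes. Their median was 0.36. Ube2v2, which helps to build ubiquitin chains, rose 7.92-fold and Rnf11 rose 8.01-fold. Ube2v2 read -0.09 and -0.31 in input, -0.78 and -0.41 in the mock IP and 2.99, 2.67, 2.69 and 2.78 in the DAZL IP, so the 4 IP arrays stood apart from the other 4. With quantile normalization the Ube2v2 difference was 0.72 and its call was lost (adjusted p = 0.0549). Rnf138 (10.3-fold) and Rnf182 (8.60-fold), named after their values were seen, also rose, but the Rnf182 call was lost with normexp (0.67, adjusted p = 0.507). Rnf212, a meiotic crossover gene, fell 3.85-fold and Rnf25 fell 2.57-fold. The mock IP median was 0.19, and the counts were 20 and 3 without input replicate 1.

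In the apoptosis list 11 of 40 genes (27.5%) were higher and 7 (17.5%) lower, beside 17.6% and 20.9% of all genes, with a median of 0.11 that was below 0 with quantile normalization (-0.05), with the mean of probes (-0.09) and with spike-in scaling (-0.16). Xiap, the caspase inhibitor, rose 7.53-fold, from -2.28 and -2.17 in input to 0.86, 0.66, 0.59 and 0.63, with -2.18 and -1.66 in the mock IP. Pmaip1, the pro-apoptotic gene for Noxa, rose 6.96-fold (3.75 and 3.36 in input, 6.58, 6.05, 6.49 and 6.30 in the DAZL IP). Genes for an inhibitor and for an activator of cell death thus both rose, with no overlap between DAZL IP and input in either. Casp9 (6.09-fold), Casp2 (4.18-fold) and Mcl1 (3.12-fold), named after their values were seen, rose as well. Cycs, for cytochrome c, fell 2.27-fold and Casp12 fell 2.22-fold. Without input replicate 2 there were 6 higher, and without input replicate 1 there were 0 lower in limma.

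Cell cycle genes gave 17 higher (29.8%) and 13 lower (22.8%) of 57, beside 17.6% and 20.9% of all genes. The median was -0.03, which became 0.09 with the authors' deposited table and 0.07 when arrays were centred on the median gene. The cyclin genes Ccnd1 and Ccnc rose 8.13-fold and 3.92-fold. Bub1, of the spindle checkpoint, fell 4.94-fold, from 2.31 and 1.95 in input to -0.32, 0.23, -0.58 and -0.01, and the kinase gene Cdk7 fell 3.08-fold (mock IP -1.32, adjusted p = 0.0247). Kinetochore genes picked after their values were seen went both ways. Spc25 rose 2.11-fold. Its complex partner Ndc80 had a difference of -4.69 in the DAZL IP and of -3.71 in the mock IP. Only 2 of 4 DAZL IP arrays were above background for Ndc80, so its limma call is a description and not a test. The checkpoint kinase gene Ttk fell 4.29-fold beside a mock IP difference of -3.34 (adjusted p = 0.0388), and Cdk2 rose 4.41-fold. The counts were 6 and 5 without input replicate 1.

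Cholesterol synthesis genes split as well, with 12 of 27 (44.4%) higher and 5 (18.5%) lower, beside 17.6% and 20.9% of all genes. The median was 0.05 (-0.22 with spike-in scaling). Cyp51, the sterol demethylase, read -0.06 and -0.18 in input, 3.15, 2.74, 3.19 and 2.94 in the DAZL IP and -0.68 and -0.53 in the mock IP, a rise of 8.71-fold (difference 3.12, SE 0.21, adjusted p = 0.000728). Hsd17b7, described above, was the other largest. The sterol sensor gene Insig1, named after its value was seen, rose 5.39-fold. Fdft1, for squalene synthase, fell 2.66-fold and Nsdhl fell 3.15-fold, although the Nsdhl call was lost with normexp (adjusted p = 0.0818) and with the authors' deposited table (0.0784). Enzymes of 1 pathway thus lay on both sides of input. Only 5 were higher and 2 lower without input replicate 1.

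Genes of mRNA decay gave 13 higher (29.5%) and 15 lower (34.1%) of 44, beside 17.6% and 20.9% of all genes, with a median of -0.33. Dcp1a, of the decapping complex, rose 5.19-fold. The exosome subunit genes Exosc9 and Exosc8 fell 3.27-fold and 3.18-fold, and the exosome nuclease gene Dis3, named after its value was seen, fell 4.20-fold. Exosc8 read 4.41 and 4.10 in input, 3.38 and 2.96 in the mock IP and 2.67, 2.65, 2.53 and 2.51 in the DAZL IP. The mock IP thus lay between input and DAZL IP (-1.09 from input, adjusted p = 0.0395). When input replicate 1 was left out, 2 were higher and 2 lower.

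More translation initiation factors were lower than higher: 22 of 46 (47.8%) were lower and 9 (19.6%) higher, beside 20.9% and 17.6% of all genes. The share higher was thus near that of all genes. The median was -0.68 (mock IP -0.21). Eif3c, of the scaffold that loads the small subunit, fell 3.69-fold, from 6.06 and 6.0 in input to 4.11, 4.35, 3.99 and 4.13, with 5.28 and 4.93 in the mock IP. Eif4a3, of the exon junction complex, fell 3.77-fold and Eif2s1, named after its value was seen, fell 3.48-fold. Eif5a2 rose 7.09-fold, and with Eif1b it stood at the upper end of the list while Eif5b stood at the lower. When input replicate 1 was left out, 5 were higher and 10 lower.

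Proteasome subunits had the lowest median of the 22 lists. Of 39 proteasome subunit genes, 27 (69.2%) were lower and 1 (2.56%) higher, beside 20.9% and 17.6% of all genes. The median was -1.07, which was -1.13 on each slide. Psma4, of the catalytic core, read 3.29 and 3.0 in input, 0.80, 0.94, 0.67 and 0.74 in the DAZL IP and 1.44 and 1.30 in the mock IP, a decrease of 5.12-fold (difference -2.36, SE 0.20, adjusted p = 0.000728). The mock IP fell by 1.77 (adjusted p = 0.0185), and its 2 arrays lay between input and DAZL IP. Psmd13 fell 5.19-fold and Psmc2, named after its value was seen, fell 4.24-fold. The 1 member that rose was Psma8, the germ cell form of a core subunit, from 1.76 and 1.45 in input to 4.35, 3.22, 4.42 and 3.45 (4.76-fold, adjusted p = 0.00390), with 0.91 and 0.93 in the mock IP. The mock IP had a median of -0.68 over the list, with 0 genes higher and 11 lower, beside 6.41% and 4.23% of all genes. The DAZL IP had 15 lower without input replicate 1.

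Nuclear genes of mitochondria followed the same direction. Of 78 mitochondrial ribosomal protein genes 50 (64.1%) were lower and 2 (2.56%) higher, beside 20.9% and 17.6% of all genes. The median was -0.85 against -0.16 in the mock IP. Mrpl39 read 3.07 and 2.82 in input, 1.94 and 1.60 in the mock IP and 0.99, 0.89, 0.91 and 0.73 in the DAZL IP, a decrease of 4.18-fold, and Mrps31 fell 3.34-fold. Mrps14 rose 3.68-fold and Mrpl50 2.80-fold, but 1 of 2 Mrpl50 probes had the opposite sign and the mean of its probes was not called (0.51, adjusted p = 0.125). Of 85 oxidative phosphorylation genes 50 (58.8%) were lower and 1 (1.18%) higher, beside the same shares of all genes. The median was -0.81 against 0.09 in the mock IP (0.34 on slide 1 and -0.16 on slide 2). Ndufv2 (3.52-fold), Ndufa10 (3.13-fold) and, named after its value was seen, Sdhb (3.17-fold) fell, and Ndufc2 was the member that rose (3.96-fold). Without input replicate 1 there were 13 and 9 genes lower in these lists. Against the mock IP 54 of the 78 and 67 of the 85 were lower, and 5 and 2 higher, beside 32.2% and 17.8% of all genes.

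Cytosolic ribosomal protein genes stayed closer to input. Of 81, 12 (14.8%) were lower and 0 higher in limma, beside 20.9% and 17.6% of all genes. The median was -0.16, and 0.02 with normexp. Rpl4 fell 3.11-fold and Rpl29 2.05-fold, and the highest member, Rps27l, was not called (0.73, adjusted p = 0.117, and 0.0134 with the slide as a block). In the mock IP the median was 0.65. Against the mock IP, 49 of the 81 were lower in the DAZL IP and 0 higher, beside 32.2% and 17.8% of all genes. The number lower than input ran from 1, without input replicate 1, to 18 as single arrays were left out. Replication-dependent histone genes, whose mRNAs lack a poly(A) tail, gave 15 of 28 (53.6%) lower and 5 (17.9%) higher, beside 20.9% and 17.6% of all genes. The median was -0.91, and 0.29 in the mock IP, but with normexp there were 3 lower and 3 higher. H1f5 fell 3.50-fold and H2ac15 2.76-fold. H2ac19 rose 4.79-fold and H1f2 2.40-fold, but the first call was lost with normexp (0.14, adjusted p = 0.871) and the other without input replicate 1 (adjusted p = 0.0851). H1f2 was also higher in the mock IP (1.59, adjusted p = 0.0263). Only 28 of the 63 listed histone genes were tested, and without input replicate 1 there were 1 higher and 1 lower.

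Ribosome biogenesis genes were put together as a list after Ncl, Brix1, Nop58 and Esf1 had been seen among the largest decreases, so its counts are a description only. Of 79 genes 52 (65.8%) were lower and 8 (10.1%) higher, beside 20.9% and 17.6% of all genes. The median was -0.99 (-1.01 and -0.89 on the 2 slides). In the mock IP the median was -0.77, with 20 genes lower and 0 higher, beside 4.23% and 6.41% of all genes. Against the mock IP 32 of the 79 were lower and 16 higher, beside 32.2% and 17.8% of all genes. Leaving out input replicate 1 gave 23 lower and 4 higher. The lower reading of these genes was therefore found in the control IP too, with medians of -0.81 on slide 1 and -0.66 on slide 2. For oxidative phosphorylation genes the control IP medians differed in sign, at 0.34 on slide 1 and -0.16 on slide 2. Over all genes they were 0.31 and 0.06.

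The high-numbered Zfp zinc finger genes included extremes in both directions. Of 289 tested among 368 listed, 93 (32.2%) were lower and 51 (17.6%) higher, beside 20.9% and 17.6% of all genes. The share higher was thus that of all genes. The median was -0.31, and -0.32 in the mock IP. Among the 245 well above background on all 6 arrays, 65 were lower and 51 higher, with a median of -0.18. Zfp516 rose 10.7-fold and had a raised mock IP (1.25, adjusted p = 0.0441). Zfp26 rose 9.05-fold, but 4 of its 7 probes had the opposite sign and the mean of its probes was not called (0.30, adjusted p = 0.555). Zfp950 was at least 1.53-fold lower, and Zfp583 read lower (-1.78) with 1 of 4 IP arrays above background. The IP side was dim for both genes, so their limma calls are a description and not a test. Both calls were lost with normexp (adjusted p = 0.413 and 0.397). Without input replicate 2 there were 24 higher, and without input replicate 1 there were 17 lower.

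Meiosis genes were mostly lower. Of 29 tested, 16 (55.2%) were lower and 3 (10.3%) higher, beside 20.9% and 17.6% of all genes. The median was -0.72, and the mock IP median was -0.51. Ccnb1ip1, a crossover regulator, rose 8.51-fold, from 0.95 and 0.83 in input to 4.42, 3.47, 4.32 and 3.70, with 0.59 and 0.48 in the mock IP. Meioc, which promotes meiotic prophase, rose 3.20-fold, and Tex12, of the synaptonemal complex and named after its value was seen, rose 4.78-fold. Mnd1 and Syce1 fell 3.11-fold and 3.08-fold, and their mock IP was also lower than input (-1.39, adjusted p = 0.0276, and -1.14, adjusted p = 0.0321). Without input replicate 1 there were 6 lower.

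Sycp3, a known mRNA target of DAZL that codes for an axial element protein, was picked after its values had been seen and shows how the choice of control changes the reading. It read -0.04 and -0.44 in input, 0.03 and 0.42 in the V5 IP, -0.81 and 0.12 in the GFP IP and -4.36 and -2.44 in the mock IP. The DAZL IP overlapped input (0.18, SE 0.52, adjusted p = 0.819) and lay above the mock IP (3.34, adjusted p = 0.00383). The mock IP itself was lower than input (-3.16, adjusted p = 0.0288). Sycp2, chosen in the same way, read lower than input in the DAZL IP (-2.05) and in the mock IP (-2.75). Only 2 of its 4 DAZL IP arrays were above background, so its limma call is a description and not a test.

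The lists of 3 other lineages each had more genes lower than higher, by counts that depended on the background correction. Endoderm genes gave 11 of 26 (42.3%) lower and 2 (7.69%) higher, fibroblast and matrix genes 10 of 33 (30.3%) lower and 3 (9.09%) higher, and mesoderm and heart genes 8 of 27 (29.6%) lower and 2 (7.41%) higher, beside 20.9% and 17.6% of all genes. With normexp, under which the shares of all genes also fell, these counts were 2 and 1, 5 and 1, and in limma 0 and 0. The list medians were -0.80, -0.62 and -0.54. Their mock IP medians were -0.02, 0.31 and 0.22. Afp, of visceral endoderm, fell 7.64-fold (0.46 and -0.48 in input, -2.66, -3.08, -2.83 and -3.20 in the DAZL IP, -1.17 and -2.43 in the mock IP), while the adhesion gene Cdh1, which germ cells also express, rose 3.63-fold. Both mock arrays lay between input and the DAZL IP for Afp. The matrix genes Thbs2 and Sparc fell 2.69-fold and 2.51-fold, the basement membrane gene Lama1 fell 2.78-fold, and the heart genes Myl3 and Bmp4 fell 2.80-fold and 2.03-fold. Ccn2 rose 2.81-fold, and Twist2 rose 2.13-fold beside a higher mock IP (1.72, adjusted p = 0.0316). Isl1 rose 2.18-fold and Hand2 at least 1.08-fold with 2 of 4 IP arrays above background, and both changed sign with normexp. Without input replicate 1 these lists had 3, 2 and 0 genes lower.

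Neural genes gave 3 higher (11.1%) and 4 lower (14.8%) of 27, beside 17.6% and 20.9% of all genes. Their median was 0.20, and -0.34 with normexp, where 0 were lower in limma. Blood and vessel genes gave 1 higher (4.17%) and 0 lower of 24 (median 0.08, -0.34 with normexp, mock IP 0.50). Ncam1 rose 3.94-fold, with 4 of 6 probes of opposite sign and a mean of the probes that was not called (0.29, adjusted p = 0.483). Tubb3 rose 4.65-fold, a call lost without input replicate 1 (adjusted p = 0.0750) or without input replicate 2 (0.0716). Nefm, a neurofilament gene, was at least 2.93-fold lower. Pecam1, which germ cells also carry, was the vessel gene that rose (3.62-fold), from -0.20 and -0.55 in input to 1.88, 0.77, 2.10 and 1.16, and it too lost its call without input replicate 1 (adjusted p = 0.0564) or without input replicate 2 (0.0858). Gata2 (0.75, adjusted p = 0.0904, and 0.00922 with the slide as a block), Cd34 (-0.51, adjusted p = 0.192) and Nfe2 (-0.45, adjusted p = 0.118) were not called. Without input replicate 1 the neural list had 1 gene higher, and without input replicate 2 it had 0 lower.

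With normexp, where calls over all genes fell from 3353 to 1809 upwards and from 3977 to 1085 downwards, other list counts fell too. Downwards, ubiquitin genes went from 10 to 1, apoptosis genes from 7 to 0, meiosis genes from 16 to 5, cytosolic ribosomal protein genes from 12 to 1, Zfp genes from 93 to 33 and translation initiation factors from 22 to 14. Mitochondrial ribosomal protein genes went from 50 to 21, oxidative phosphorylation genes from 50 to 18, ribosome biogenesis genes from 52 to 32, cell cycle genes from 13 to 7 and decay genes from 15 to 7. Germ cell genes went from 10 to 5 upwards and from 8 to 3 downwards, and Zfp genes from 51 to 30, cell cycle genes from 17 to 9 and decay genes from 13 to 8 upwards. RNA-binding regulators had 27 higher, Polycomb genes 14, ubiquitin genes 29 and proteasome subunits 18 lower.

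Some calls of single genes named above were lost as well. With normexp these were Cycs, Casp12, Mael, Klf4, Cdk2, Spc25, Rnf25, Rpl29, Nefm, Lama1, Myl3, Bmp4, Thbs2, Twist2 and Sycp2, with adjusted p from 0.0514 for Bmp4 to 0.345 for Casp12. Without input replicate 1 or without input replicate 2, or both, they were Tfap2c, Mael, Lin28a, Klf4, Zfp42, Pum2, Pum3, Cycs, Casp12, Mcl1, Cdk2, Spc25, Ttk, Dis3, Mrps14, Ndufc2, Rpl29, H2ac15, Sycp2, Isl1, Hand2, Ccn2, Twist2, Thbs2, Sparc, Bmp4, Myl3 and Nefm. The adjusted p of these ran from 0.0502 for Thbs2 to 0.275 for Hand2. Ttk, Spc25, Twist2 and Hand2 also lost their calls without V5 IP replicate 1 and without GFP IP replicate 1.

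With the slide as a block, calls over all genes rose from 3353 to 4401 upwards and from 3977 to 5747 downwards. Some list counts rose by more than 1.5 times, several of them by only a few genes. Upwards, meiosis genes went from 3 to 7, neural genes from 3 to 6, blood and vessel genes from 1 to 4, proteasome and oxidative phosphorylation genes from 1 to 3 and cytosolic ribosomal protein genes from 0 to 1. Downwards, pluripotency genes went from 3 to 7, apoptosis genes from 7 to 12, cell cycle genes from 13 to 22, cholesterol synthesis genes from 5 to 8, mesoderm and heart genes from 8 to 13 and fibroblast and matrix genes from 10 to 16.

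**Figure D5:**
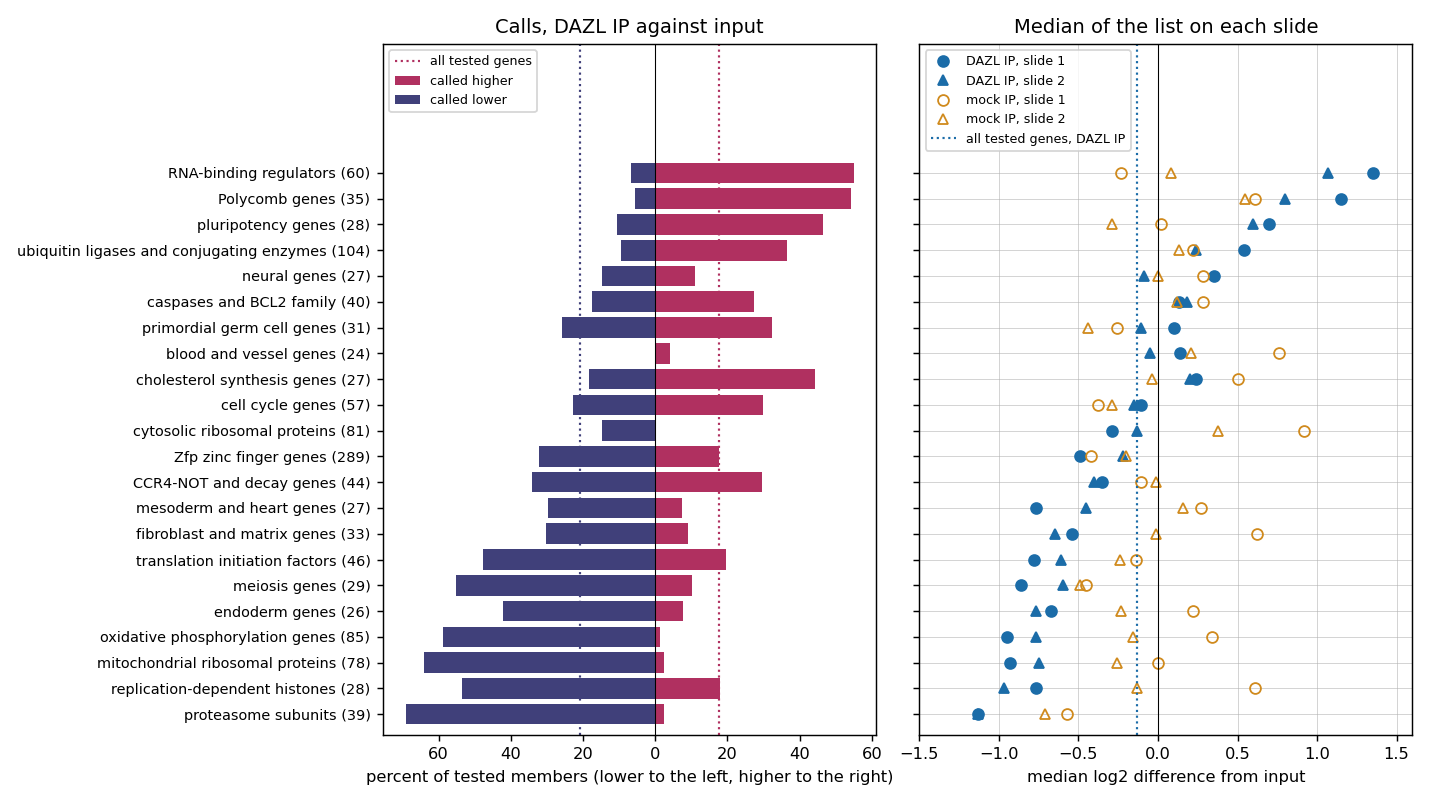
Left, percent of the tested members of each list called higher (red, to the right) or lower (dark blue, to the left) in DAZL IP against input, with the number tested in brackets and dotted lines at the shares over all tested genes; right, the median log2 difference from input of each list on slide 1 (circles) and slide 2 (triangles) for DAZL IP (filled) and mock IP (open). RNA-binding regulators, Polycomb and pluripotency genes have the highest DAZL IP medians on both slides, and proteasome subunits the lowest.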

How the data were processed

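Per the file headers, spots were quantified by Agilent Feature Extraction 9.1.3.1, so the deposited per-array values are linear intensities. The processed intensity, background-subtracted and detrended per the file headers, was taken as log2 minus each array's 75th percentile. Mean and background intensities fed the normexp alternative (offset 50). The authors also deposited a table of signal values, normalized to the median in GeneSifter per the file headers. It was used as log2 of the signal plus 0.1. Its deposited quality score served only in matching: 45018 of 45018 entries matched a spot within 1e-05.

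Spots of a probe were averaged. A probe needed to be well above background on each array of some group, and 28104 of 41174 did. The brightest such probe by its mean stood for the gene, which gave 19032 genes. Several probes passed for 6546 genes: 2171 of these had probes of opposite sign, and 271 had probes past 2-fold in both directions. No tested gene was saturated. The RefSeq table of GRCm38.p6 named 22951 probes by accession, 6659 by current symbol and 3096 by synonym, and 8468 kept the file's name.

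The groups were fitted in limma 3.58.1 under R 4.3.3, with lmFit and eBayes and two-sided tests, on all 8 arrays, so the mock arrays enter the shared spread. The DAZL IP is the mean of the V5 and GFP group means. Adjustment was by Benjamini-Hochberg over the whole table. On simulated data with 200 of the 19032 genes changed, 35 of 50 were recovered at a log2 change of 2, 25 of 50 at -2, 3 of 50 at 1 and 3 of 50 at -1, with 4 false calls. The simulated arrays varied independently and had far fewer changed genes than were called in the real data, so these rates need not hold there.

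Same-numbered arrays of different groups deviated together: correlations were 0.78 between V5 and GFP IP, 0.51 and 0.52 between mock and each of these, and 0.30 to 0.35 with input. A shared number means a shared slide, per the file headers. With 2 numbers the replicate block was kept as an alternative.

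Named genes were Dazl, the 12 highest and 12 lowest called, 6 each that were above background on one side only, the 4 highest and 4 lowest in the top decile of input level, and up to 2 at each end by moderated t of each list. The 12 and the 6 at each end were taken from genes whose 4 DAZL IP arrays all lay above, or all below, both input arrays. The 12 also had to be well above background on all 6 arrays. Clone and accession-like names were left out. Some genes that the rule picked are not reported here. Genes outside this rule are said to be named after their values were seen. The lists and the arrays were chosen with earlier results of these data known. The 22 lists hold 1234 distinct genes, 4 of them in more than 1 list.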

Additional observations from a re-analysis of the deposited data

How the results depend on the processing

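Counts are given as higher and lower against input. With normexp the DAZL IP had 1809 and 1085 (53.8% and 27.1% of the calls kept), the V5 IP 1177 and 353, the GFP IP 1246 and 488 and the mock IP 5 and 0, with 1919 and 951 at an unadjusted p under 0.05 for the mock IP in limma. At an adjusted p under 0.01 the DAZL IP had 2104 and 1732. With spike-in scaling, added after seeing the data, the DAZL IP had 0 and 19, the V5 IP 0 and 1 (222 and 327 unadjusted), the GFP IP 0 and 11 (167 and 494) and the mock IP 0 and 3789 (0 and 10193), with a median SE of 1.10 against 0.27 for the DAZL IP. Spike-in scaling with the replicate block gave the DAZL IP 1107 and 1879, the V5 IP 654 and 690, the GFP IP 596 and 1313 and the mock IP 8 and 18461. Without a filter on dim probes the V5 IP had 1787 lower and the mock IP 58 and 61. Centring on the median gave the mock IP 804 higher, and its own 4 arrays gave 23 and 20. The replicate block raised the V5 IP to 4742 lower, the GFP IP to 5189 lower and the mock IP to 3890 and 2595. The block gave the DAZL IP 4401 and 5747, kept all of its calls and lost none of the 157 calls among named genes, while Gata2, Dnd1, Rps27l, Sdhc and Psmd2 gained a call.

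Leaving out single arrays gave ranges of 1576 to 3528 and 977 to 4505 for the DAZL IP, 887 to 2779 and 318 to 3207 for the V5 IP, 1209 to 3177 and 622 to 3829 for the GFP IP, and 0 to 2391 and 0 to 1406 for the mock IP. The lowest of each came without input replicate 1, which for the mock IP was shared with mock IP replicate 1. Every array left out in turn kept 1433 (42.7%) and 821 (20.6%) of the DAZL IP calls. Genes that changed sign with normexp were Hoxa10 (-0.27), Olfr701 (-0.04), Spdye4b (-0.13), Esr1 (-0.13), Tnfsf4 (-0.06), Isl1 (-0.16) and Hand2 (-0.40), and Fxr1 did so with the mean of probes (0.20). The highest-minus-lowest difference by input level, -0.23, was 0.39 with normexp (-1.17 on slide 2 and 1.95 on slide 1), -0.72 with quantile normalization and -0.52 with genes above background on all 6 arrays. The cause of these shifts was not tested. The median over all genes, -0.13, became -0.38 with normexp, -0.39 with spike-in scaling, 0.03 with the deposited table and -0.02 with centring. The analysis by protein length was not run. With 2 arrays per group, changes of 2-fold were seldom recovered in simulated data, which had far fewer changed genes than were called here.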

Other observations

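Genes were also sorted by their genomic span in RefSeq into 5 groups of 3068 genes, with median spans from 3.37 to 117 kb. The share called higher in DAZL IP against input was 11.5% in the shortest group, then 15.0%, 17.9%, 24.8% and 24.4% in the longest. The median difference was -0.16 in the shortest group, then -0.22, -0.20, -0.02 and 0.05 in the longest. On slide 2 it was -0.21 in the shortest group and 0.03 in the longest. The course depended on the input level. Among genes with a low input level the median did not rise with span: it was 0.02, -0.12, -0.17, -0.06 and -0.06. At a middle input level it was -0.25 in the shortest group and 0.22 in the longest, and at a high level -0.38 and 0.10. In the mock IP, with all input levels together, the medians fell from 0.48 in the shortest group to -0.03 in the 2 longest. These are descriptions across genes, and no test was made.

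Long noncoding RNAs, of which 378 were tested, were called higher in 8.99% and lower in 12.2%, against 18.7% and 20.5% of 15340 protein-coding genes. Their median reading in input was -3.60 on the log2 scale, against -0.03 for protein-coding genes.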
